A study of Mus musculus with 4 samples.

Results

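The promoters of 9 cohesin genes were examined for KDM5C peaks, as part of a KDM5C ChIP-Seq study in mouse cells in which 37273 genes were annotated on the assembled chromosomes. The 9 genes comprise 4 meiotic cohesin genes (Smc1b, Stag3, Rec8 and Rad21l) and 5 somatic ones (Smc1a, Smc3, Stag1, Stag2 and Rad21), all of which were found in the annotation. A gene was taken to have a promoter peak when the midpoint of a peak lay within 1 kb of any of its annotated transcription start sites (TSSs) in the mm9 assembly.

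ChIP-Seq pulls down sonicated chromatin with an antibody and sequences the recovered DNA, here with an in-house antibody against KDM5C, also called SMCX, an X-linked demethylase of lysine 4 of histone H3. The cells were male mouse epiblast-like cells (EpiLCs) at day 2, labelled as strain C57BL/6J. The study's methods give other backgrounds for its mutant mouse strains, including a mixed one for the Kdm5c strain. By the study's methods, day 2 means 2 days of further differentiation past the EpiLC stage. Every sample carried truncated Tsix, the gene whose antisense transcript represses Xist. WT cells had an intact Kdm5c gene, and KO cells carried a deletion allele that removes exons of the catalytic JmjC domain and leaves a barely detectable protein. Each genotype had 1 ChIP sample, 1 input sample and 1 peak list, with WT peaks called on replicate cultures and KO peaks on a single one per the study's methods, so that no value below carries a replicate error, and genotypes and genes were not tested against each other.

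Of the 6916 WT peaks on assembled chromosomes, the median score was 82, where the score is 10 times the −log10 of the caller's q-value, and the median fold enrichment over input was 3.72. The KO list held 44 peaks. Peak lists hold no read counts and no expression values, so the depth behind each peak is unknown, and neither the loss of Kdm5c nor the cell type by its markers was checked here.

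Cohesin is a ring of SMC1, SMC3 and a kleisin subunit to which a STAG protein binds, and it holds sister chromatids together and shapes chromatin loops. Dividing somatic cells build the ring with SMC1A, the kleisin RAD21 and either STAG1 or STAG2. Germ cells in meiosis also express SMC1B, STAG3 and the kleisins REC8 and RAD21L, whereas SMC3 serves both kinds of ring. The meiotic genes are largely silent outside the germ line, and many germ line promoters carry a CpG density at which DNA methylation can silence them.

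The sequences before the gene starts are shown first, because they display how far the members differ in CpG content and in their neighbours. Each is the mm9 reference from 5′ to 3′ on the strand of the cohesin gene, it ends at the base before the TSS, and capitals mark CpG dinucleotides. For the 3 members with a protein-coding neighbour that starts on the other strand, the whole stretch between the paired starts is given. It measured 141 bases between Ribc2 and Smc1b (chr15:84962388-84962528, minus strand), 132 bases between Ribc1 and Smc1a (chrX:148450839-148450970, plus strand) and 234 bases between Gpc2 and Stag3 (chr5:138721234-138721467, plus strand).
Smc1b: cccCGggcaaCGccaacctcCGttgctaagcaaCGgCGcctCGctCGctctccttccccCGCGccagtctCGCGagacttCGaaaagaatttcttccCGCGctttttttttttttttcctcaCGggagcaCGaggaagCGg
Smc1a: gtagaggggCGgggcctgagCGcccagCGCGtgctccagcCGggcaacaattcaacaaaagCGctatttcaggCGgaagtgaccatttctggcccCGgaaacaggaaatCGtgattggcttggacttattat
Stag3: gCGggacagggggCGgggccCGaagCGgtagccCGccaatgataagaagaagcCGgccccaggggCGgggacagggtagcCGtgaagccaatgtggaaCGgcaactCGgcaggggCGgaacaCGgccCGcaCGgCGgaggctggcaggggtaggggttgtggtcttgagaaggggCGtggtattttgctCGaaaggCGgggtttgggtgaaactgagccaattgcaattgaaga

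For the other members, 150 bases before a TSS are given, to set promoters with a KDM5C peak (Rec8 and Stag1) beside promoters without one (Rad21l, Smc3, Stag2 and Rad21). They lie at chr14:56236724-56236873 on the plus strand (Rec8), chr9:100543717-100543866 on the plus strand (Stag1, at the TSS next to its peak), chr2:151494270-151494419 on the minus strand (Rad21l), chr19:53674736-53674885 on the plus strand (Smc3), chrX:39502344-39502493 on the plus strand (Stag2) and chr15:51823307-51823456 on the minus strand (Rad21).
Rec8: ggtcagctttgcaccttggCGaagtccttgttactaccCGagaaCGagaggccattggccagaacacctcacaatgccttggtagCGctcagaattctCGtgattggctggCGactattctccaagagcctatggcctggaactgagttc
Stag1: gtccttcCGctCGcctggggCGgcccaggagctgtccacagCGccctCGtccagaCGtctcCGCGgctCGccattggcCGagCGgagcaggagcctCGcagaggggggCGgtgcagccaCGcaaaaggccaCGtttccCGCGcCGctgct
Rad21l: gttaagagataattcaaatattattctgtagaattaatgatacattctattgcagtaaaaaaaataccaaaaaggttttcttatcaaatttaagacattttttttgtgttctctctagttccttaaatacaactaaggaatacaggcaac
Smc3: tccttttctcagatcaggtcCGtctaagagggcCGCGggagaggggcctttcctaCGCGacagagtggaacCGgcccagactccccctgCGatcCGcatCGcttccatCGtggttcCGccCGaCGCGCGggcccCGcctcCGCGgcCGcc
Stag2: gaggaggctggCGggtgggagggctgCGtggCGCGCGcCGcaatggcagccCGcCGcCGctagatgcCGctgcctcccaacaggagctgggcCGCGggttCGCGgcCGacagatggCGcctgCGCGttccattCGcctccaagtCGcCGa
Rad21: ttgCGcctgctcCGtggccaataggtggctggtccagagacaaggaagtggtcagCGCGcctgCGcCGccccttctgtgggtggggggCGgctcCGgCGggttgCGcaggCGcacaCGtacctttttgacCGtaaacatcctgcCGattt

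Within these 150 bases, Stag2 held 21 CpGs, Smc3 19, Stag1 18, Rad21 14, Rec8 6 and Rad21l 0. The 3 somatic promoters without a peak were thus rich in CpG, and the meiotic promoter without a peak had none in this stretch. The Stag1 stretch lay inside the Stag1 peak. The Rec8 peak reached only 17 bp upstream of the first Rec8 TSS, so most of the Rec8 stretch lay outside it. Over its 388 bp, the Rec8 peak itself held 19 CpGs.

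To ask whether KDM5C sits at cohesin promoters in these cells, WT peaks were assigned to the 9 genes. A WT promoter peak was found at 3 of the 4 meiotic genes, Smc1b, Stag3 and Rec8, and at 2 of the 5 somatic genes, Smc1a and Stag1. Over all annotated genes 16.1% had a WT promoter peak, and over the 22359 protein-coding genes the share was 24.0% (exact Clopper-Pearson 95% interval 23.4 to 24.5%, covering counting error only). Over the 9965 protein-coding genes with a CpG-rich promoter it was 44.1% (95% interval 43.1 to 45.1%). CpG-rich here means an observed/expected CpG ratio of at least 0.6 and a GC content of at least 50% over 500 bp on either side of the first protein-coding TSS. The somatic share, 2 of 5, lay near that of CpG-rich promoters, and with 4 and 5 genes the counts of meiotic and somatic genes differed by a single gene.

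**Figure D1:**
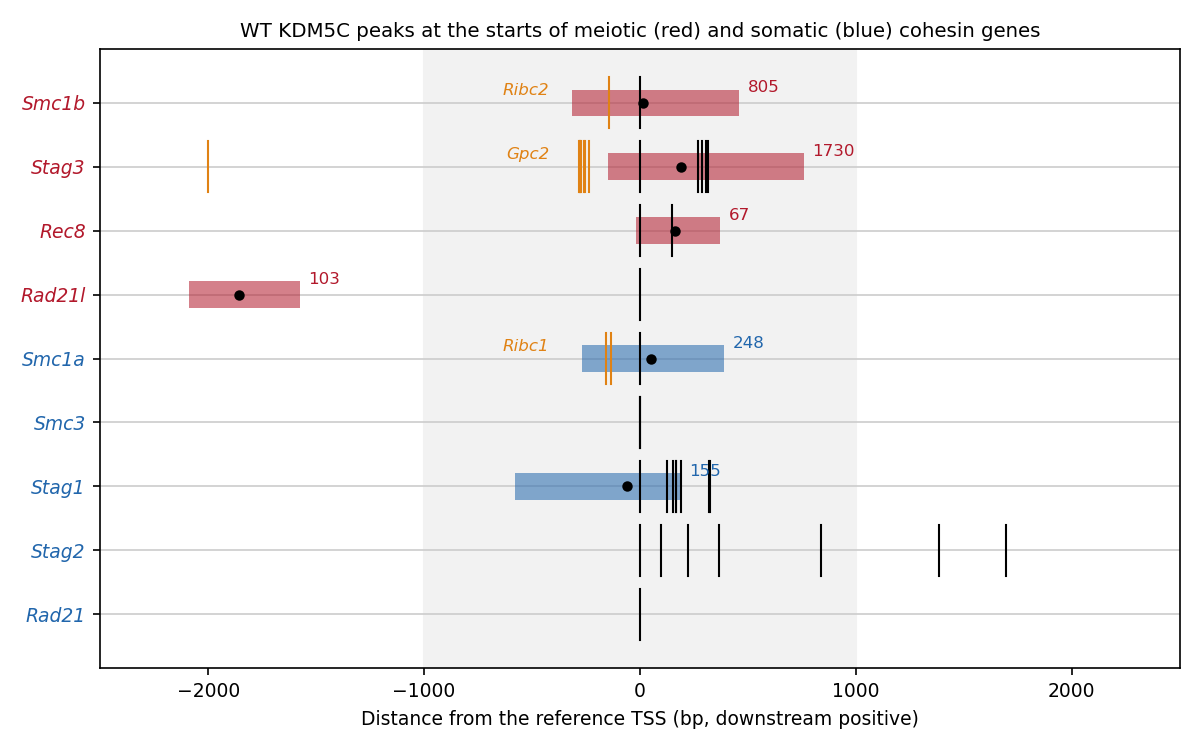
WT KDM5C peaks (bars, with their scores) and summits (dots) along the distance in bp from the reference TSS of each meiotic (red) and somatic (blue) cohesin gene, with the gene's annotated TSSs as black ticks and protein-coding neighbours' TSSs as orange ticks. The reference is the first protein-coding TSS, except for Stag1, where it is the TSS next to the peak, and grey shading spans 1 kb on either side. The peaks of Smc1b, Stag3, Rec8, Smc1a and Stag1 lie on the TSS, that of Rad21l lies outside the shading, and Smc3, Stag2 and Rad21 have none in view.

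Peak strength was uneven within the classes. Stag3 and Smc1b carried peaks in the top 10% of the WT list, whose limit was a score of 320, and none of the somatic genes did. A promoter peak of that strength was present at 2.79% of protein-coding genes and at 5.52% of those with a CpG-rich promoter. Not all meiotic genes were strong, since the Rec8 peak scored below both somatic peaks. The median score was 805 over the 3 meiotic genes with a peak and 201.5 over the 2 somatic ones, against 90 over the 5357 protein-coding genes with a WT promoter peak. These medians rest on few genes and describe them only.

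**Figure D2:**
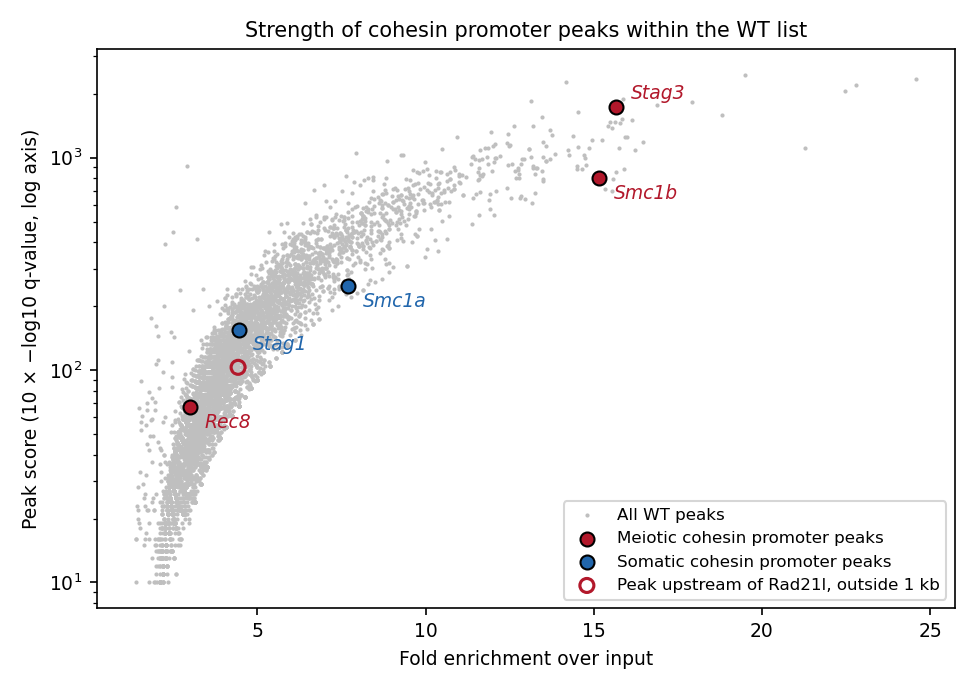
Peak score (10 times the −log10 q-value, log axis) against fold enrichment over input for all 6916 WT peaks (grey), with promoter peaks of meiotic (red) and somatic (blue) cohesin genes and the peak upstream of Rad21l (open circle). Stag3 (1730) and Smc1b (805) sit near the top of the list at almost the same fold enrichment, and Smc1a (248), Stag1 (155) and Rec8 (67) follow.

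Among the SMC1 subunits, both the meiotic and the somatic gene had a peak. Smc1b encodes the meiotic SMC1 subunit (ENSMUSG00000022432.6, chromosome 15, 84895121 to 84962387, minus strand). Its peak spanned 84961927 to 84962702 (776 bp), and scored 805, above 98.2% of WT peaks, at 15.2-fold enrichment. The summit lay 14 bp downstream of the single annotated TSS, in sequence annotated as untranslated. By score it ranked 126 in the WT list and 6 of 286 on chromosome 15.

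Smc1a encodes the SMC1 subunit of the somatic ring (ENSMUSG00000041133.5, chromosome X, 148450971 to 148497237, plus strand). The peak at Smc1a spanned 148450701 to 148451361 (661 bp), and scored 248, above 85.7% of WT peaks, at 7.70-fold enrichment. Its summit lay 51 bp downstream of the first TSS, again in untranslated exon sequence. It ranked 991 in the WT list and 7 of the 98 peaks on X. On X, 8.48% of protein-coding genes and 28.7% of the 223 protein-coding genes with a CpG-rich promoter had a WT promoter peak (95% interval 22.9 to 35.1%). Kdm5c itself starts 217 kb from the Smc1a summit and had 0 WT peaks within 5 kb.

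The SMC1 promoters also shared an arrangement. Smc1b starts 142 bp from Ribc2, and Smc1a starts 133 bp from Ribc1, each pair head to head on opposite strands. Ribc1 and Ribc2 are themselves paralogues, which encode RIB43A-domain proteins of ciliary and flagellar microtubules. Each peak covered both starts of its pair, so binding at the cohesin gene and at its neighbour cannot be told apart. The stretch between the paired starts held 17 CpGs at Smc1b and 9 at Smc1a, as printed above. Of the 2030 protein-coding genes with such a head-to-head neighbour within 1 kb, 38.0% had a WT promoter peak, and of those with a CpG-rich promoter 41.7% did.

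SMC3 has no meiotic paralogue and takes part in both rings. No WT peak lay at Smc3 (ENSMUSG00000024974.9, chromosome 19, 53674886 to 53720323, plus strand), and the nearest was 54413 bp from any of its TSSs, with a score of 87. Its promoter held the most CpGs of the 9 around the first TSS, 112 within 500 bp upstream and downstream, with a GC content of 69.5% and a CpG ratio of 0.932. Among protein-coding genes with a ratio from 0.8 to 1.0, 49.1% had a WT promoter peak.

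Among the STAG subunits, the meiotic gene had the strongest peak of all 9 genes. Stag3 encodes the STAG protein of meiotic cohesin (ENSMUSG00000036928.8, chromosome 5, 138721468 to 138753621, plus strand). Its peak spanned 138721322 to 138722227 (906 bp) and scored 1730, at 15.7-fold enrichment. It ranked 10 in the WT list and first of the 433 peaks on chromosome 5, and 0.0447% of protein-coding genes had a promoter peak with a score as high. The summit lay 78 bp upstream of the TSS at 138721737, which is also the start in RefSeq, and within untranslated sequence of a transcript that starts earlier. Fold enrichment at Stag3 and Smc1b was nearly the same, 15.7 and 15.2, although their scores were 1730 and 805.

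Stag3 too starts head to head with a neighbour, Gpc2, which encodes the cell-surface proteoglycan glypican 2, with 235 bp between their nearest starts. Here the peak did not reach the starts of Gpc2, since its edge lay 146 bp upstream of the first Stag3 TSS. Its midpoint still lay within 1 kb of a Gpc2 TSS, so by the rule used the peak counts for Gpc2 too. The summit lay on the Stag3 side, 191 bp downstream of that TSS.

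The somatic paralogues Stag1 and Stag2 differed from each other. At Stag1 (ENSMUSG00000037286.8, chromosome 9, 100498217 to 100858964, plus strand), binding was called from 100543290 to 100544053 (764 bp) and scored 155, above 73.6% of WT peaks, at 4.44-fold enrichment. The peak midpoint did not lie at the first annotated TSS but 45455 bp downstream of it, where 8 of the 14 annotated Stag1 TSSs lie within 1 kb of the peak midpoint. The summit lay 58 bp upstream of the TSS at 100543867, which is the start of the gene in RefSeq, and in an intron of the longer transcripts. Around that TSS the CpG ratio was 1.00 and the GC content 71.5%, whereas around the first annotated TSS they were 0.391 and 50.5%. Stag1 has the most TSSs of the 9 genes and thus the widest search window, 14329 bp against 2001 bp for genes with 1 TSS.

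Stag2 (ENSMUSG00000025862.8, chromosome X, 39502494 to 39630362, plus strand), the X-linked somatic STAG gene, had no WT peak at any of its 8 TSSs. The nearest WT peak on X lay 2637560 bp away, with a score of 73. Its promoter was CpG-rich, with 93 CpGs and a CpG ratio of 0.969. Of the protein-coding genes on X with a CpG-rich promoter, 28.7% had a WT promoter peak, so most had none. Smc1a and Stag2, both on the single X chromosome of these cells, thus differed in having a peak.

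Among the kleisins, which close the ring, Rec8 alone had a promoter peak, the weakest of the 5. Rec8 (ENSMUSG00000002324.7, chromosome 14, 56236874 to 56244232, plus strand), the kleisin kept at centromeres through the first meiotic division, had a peak of 388 bp from 56236857 to 56237244. Its score of 67 lay above 40.4% of WT peaks and thus below the WT median, and its fold enrichment was 3.0. The summit lay 18 bp downstream of the TSS at 56237020, in untranslated exon sequence. The Rec8 promoter was not CpG-rich around its first TSS, with a CpG ratio of 0.491 and a GC content of 51.0%. Over the called peak itself, the ratio was 0.621 and the GC content 57.5%.

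Rad21l (ENSMUSG00000074704.2, chromosome 2, 151471140 to 151494269, minus strand), a kleisin of early meiotic prophase, had no WT peak within 1 kb of its single TSS. The nearest peak lay upstream, with its near edge 1576 bp, its midpoint 1832 bp and its summit 1856 bp from the TSS, beyond the 1 kb limit. It ran from 151495845 to 151496356 (512 bp), in no annotated gene, and scored 103, above 59.1% of WT peaks, at 4.43-fold enrichment. The next nearest TSS, of BC052486, was 15698 bp from its midpoint. RefSeq gives the same Rad21l start as the annotation used here.

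The Rad21l promoter and the upstream peak had opposite base composition. Within 500 bp upstream and downstream of the TSS the promoter held 5 CpGs at a GC content of 28.7%, whereas the 512 bp peak held 30 CpGs at 66.0%, with a CpG ratio of 0.551. The 150 bases around the summit are shown to set them beside the CpG-free Rad21l stretch above (chr2:151496050-151496199, minus strand, capitals mark CpG).
Rad21l upstream peak: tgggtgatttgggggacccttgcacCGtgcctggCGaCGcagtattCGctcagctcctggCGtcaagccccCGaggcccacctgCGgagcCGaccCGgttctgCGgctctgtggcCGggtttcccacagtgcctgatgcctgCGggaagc

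Rad21 (ENSMUSG00000022314.9, chromosome 15, 51794151 to 51823306, minus strand), the somatic kleisin, had no WT peak at its TSS, and the nearest one lay 48689 bp away, with a score of 62. Its promoter was CpG-rich, with 86 CpGs and a CpG ratio of 0.877. In score, the order over the 9 genes was therefore Stag3, Smc1b, Smc1a, Stag1 and Rec8, followed by Smc3, Stag2, Rad21 and Rad21l without a promoter peak. Without replicates, the spread between neighbours in this order is not known.

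The order of the members by CpG content was set beside that of all genes. Over protein-coding genes, the share with a WT promoter peak was 1.72% at CpG ratios under 0.2, 5.44% from 0.2 to 0.4, 18.1% from 0.4 to 0.6, 38.4% from 0.6 to 0.8, 49.1% from 0.8 to 1.0 and 56.7% at 1.0 or more. Smc1b (0.704) and Smc1a (0.779) had peaks at a lower ratio than Smc3, Stag2 and Rad21, which had none at ratios from 0.877 to 0.969. Stag3, at 0.809, had the highest ratio among members with a peak at their first TSS. Of the 4 somatic genes with a CpG-rich first promoter, 1 had a WT peak, and of the 2 such meiotic genes, 2 had one. Over all CpG-rich protein-coding promoters the share was 44.1%, and over those on X, which carries Smc1a and Stag2, it was 28.7%. Counts this small cannot set the classes apart. Rec8 and Stag1 had a peak although their first promoter was not CpG-rich, a group in which 7.75% of protein-coding genes had one. By ratio, Rec8 (0.491) fell in the bin with 18.1% and Stag1 (0.391) in the bin with 5.44%. The Stag1 peak lay at another TSS with a ratio of 1.00.

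**Figure D3:**
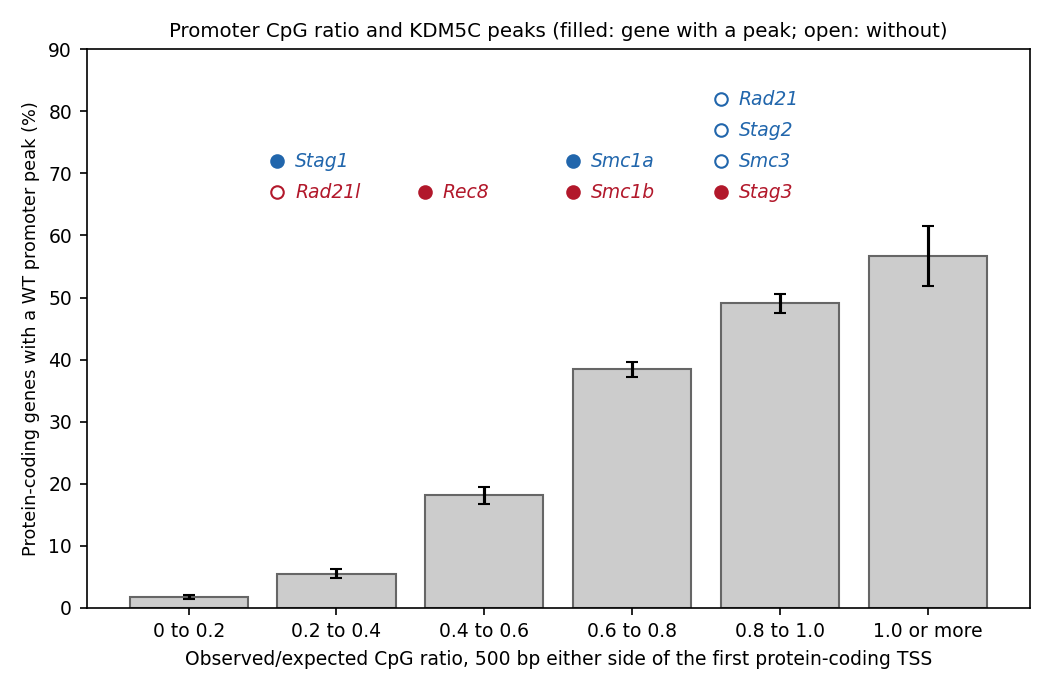
Share of protein-coding genes with a WT promoter peak (bars, %) by the observed/expected CpG ratio over 500 bp on either side of the first protein-coding TSS, with exact 95% intervals, and the 9 cohesin genes placed over their own bin at heights without meaning (filled with a peak, open without). The bars rise from 1.72% to 56.7%, while Smc3, Stag2 and Rad21 stand without a peak in the bin from 0.8 to 1.0. Stag1 is placed by its first TSS, which lies away from its peak.

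KO cells were used to control for what the antibody recovers without intact KDM5C. None of the 9 genes had a KO promoter peak, and 0 of the 5 WT promoter peaks overlapped a KO peak, beside 0.622% of all WT peaks (43 of 6916). Over protein-coding genes, 0.0939% had a KO promoter peak, and both counts of 0 lay near their background. The KO peak closest to any member lay 5891835 bp from the TSS of Rad21l, and chromosomes 14 and 19, which carry Rec8 and Smc3, had no KO peak. Signal below the calling limit leaves no entry in the KO list.

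Promoters were also searched on both strands for an E-box, CACGTG, and for an E2F-type sequence, GGCGGGA, the kinds of sites through which germ line genes are known to be repressed in somatic cells by complexes with MGA, MAX and E2F6. Within 250 bases on either side of the first protein-coding TSS, the E-box was found at Stag3 alone, 102 bp downstream of the TSS and 89 bp upstream of the summit. The site with 10 bases on either side is shown with the E-box in capitals (chr5:138721557-138721582, plus strand).
Stag3 E-box: cgctggagccCACGTGacaggactgc
This window held an E-box in 10.4% of protein-coding promoters and in 14.1% of CpG-rich ones. Around the summit, in windows of 100 bases on either side, the E-box was present in 15.8% of WT peaks and in 30.4% of those in the top 10% by score. The E2F-type sequence was found at Rad21 alone, which had no peak, and in 21.3% of protein-coding promoters and 37.7% of CpG-rich ones. The Stag1 TSS next to its peak and the peak upstream of Rad21l held neither sequence. A match is a description of letters and does not show that a factor binds.

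Other genes of the pathway were taken from 2 lists of 14 genes each. Among loaders, release factors, acetyltransferases and protectors of cohesin, listed together with Espl1, Pttg1, Hdac8 and Ctcf, 5 of 14 had a WT promoter peak. Among genes of condensin and of the SMC5/6 complex, 5 of 14 did. Over all protein-coding genes the share was 24.0%, and over those with a CpG-rich promoter it was 44.1%. The first list held 12 CpG-rich promoters and the second 13. Of the cohesin regulators, Sgol1 had a score of 235 and Sgol2 one of 153. Both encode shugoshins, which shield cohesin at centromeres from cleavage, SGOL2 in meiosis. Esco1, an acetyltransferase of SMC3, scored 70, Espl1, the separase that cleaves kleisins, 52, and Pds5b, a regulator of cohesin release, 39. The loader genes Nipbl and Mau2, the release factor Wapal and Ctcf, the factor that halts cohesin on chromatin, had no WT promoter peak. The same held for Esco2, Pds5a, Cdca5, Pttg1 and Hdac8.

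Of the other SMC complexes, both SMC genes of the SMC5/6 complex had a peak, Smc5 with a score of 180 and Smc6 with 151. Smc2 and Smc4, the SMC genes of condensin, had none. Neither did Nsmce1, Nsmce2 and Nsmce4a of the SMC5/6 complex, nor Ncaph, Ncapd2, Ncaph2 and Ncapd3 of condensin. Ncapg2, a condensin II subunit, scored 150, Ncapg, a condensin I subunit, 43, and Ndnl2, of the SMC5/6 complex, 37. The 10 scores on both lists ranged from 37 to 235, so that none reached the top 10% of the WT list or the level of Smc1a, and 0 of these 28 genes had a KO promoter peak.

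**Figure D4:**
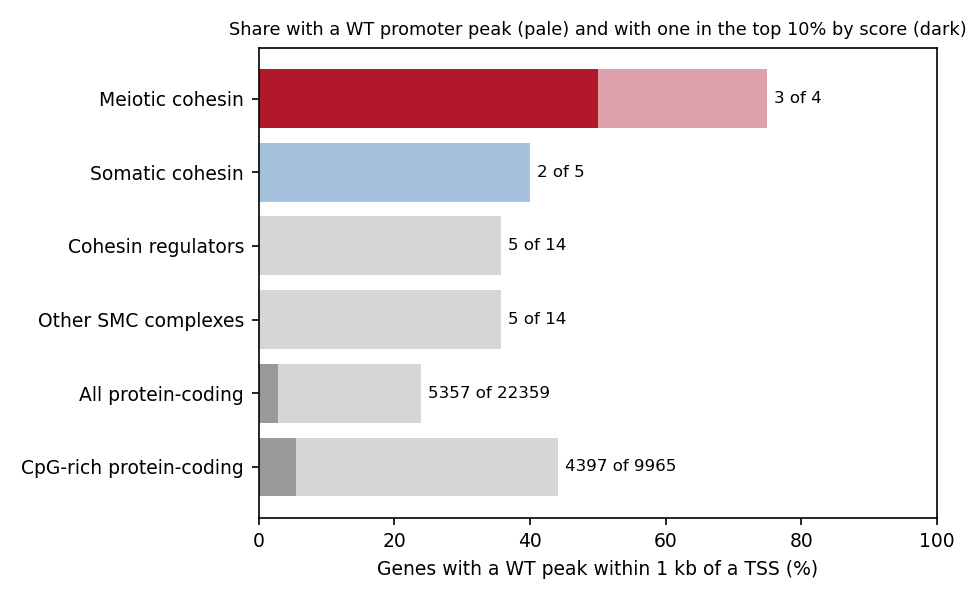
Percent of genes with a WT peak within 1 kb of a TSS (pale bars, counts beside them) and with one in the top 10% of the WT list by score (dark bars), for the 2 cohesin classes, the 2 pathway lists, all protein-coding genes and those with a CpG-rich promoter. Peaks in the top 10% occur at 2 of the 4 meiotic genes and at none of the somatic, regulator or other SMC genes.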

How the data were processed

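KDM5C ChIP-Seq and input were sequenced from WT and KO EpiLCs at day 2, grouped by sample title. The authors mapped single-end reads to mm9 with Bowtie (1.1.2 in the submitters' processing notes, another version in the study's methods), retained unique alignments and ran MACS2 2.1.0.20140616 against input. The authors deposited 1 peak list per genotype, with a score, a fold enrichment as a ratio of ChIP to input, the −log10 p-value, the −log10 q-value and the summit offset of each peak. The score was 10 times the −log10 q-value with decimals dropped in 6980 of 6980 peaks of both lists, and the largest q-values were 0.0977 (WT) and 0.0948 (KO).

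Peaks on chromosomes 1 to 19, X and Y were kept (6916 of 6933 WT, 44 of 47 KO). The reference was NCBIM37, the same assembly as mm9, with GENCODE M1 annotation, and coordinates count from 1. RefSeq starts of 7 members were placed in mm9 by exact match of their 300-base promoter sequence (build GRCm38.p6). Peak lists called separately were not compared in strength. Unique mapping can lose peaks in repeated sequence, and the lists, called on replicates (WT) and a single culture (KO), may differ in sensitivity. All 9 members and every pathway gene with a WT peak were named. Members and lists were chosen with earlier results of these data known. Assignment was tested on simulated data. Python 3.11.15, NumPy 2.4.6, SciPy 1.17.1 and pysam 0.24.0 were used. Protein sequences were not analysed here.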

Additional observations from a re-analysis of the deposited data

How the results depend on the processing

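Across 9 results, 67 values were recomputed under other settings. Of these, 43 equalled the reported value, 9 changed within the tolerance (1.5 times for counts of genes, the 95% interval for shares), 15 moved beyond it and 0 reversed. Counts, shares and medians have no sign that could reverse. A KO count of 0 was also bound to stay at 0 under shorter distances, fewer TSSs, score limits or stricter overlap. At 500 bp from the TSS 21.8% of protein-coding genes had a WT promoter peak, at 2 kb 25.1% and at 5 kb 27.0%. At 2 and 5 kb the peak upstream of Rad21l was added, giving 4 of 4 meiotic genes with a median score of 454. With the first protein-coding TSS alone, Stag1 lost its peak, leaving 1 somatic gene, with a score of 248, and a share of 22.1%. When only peaks at the WT median score or higher were used, 5 regulator and SMC genes and 13.0% of protein-coding genes remained, and at the 90th percentile 0 somatic genes, 0 regulator and SMC genes and 2.79%. Under both limits Rec8 was lost, which left 2 of 4 meiotic genes, Smc1b and Stag3. With CpG-rich set at a ratio of 0.75 and a GC content of 55%, 49.3% had a peak, and with composition taken over 250 bp on each side 41.8%. No paired analysis was possible because the WT and KO lists are single calls. Read counts, and so depth, were not analysed here.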
